A study of Homo sapiens with 6 samples.

Results

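The heat shock proteins and their DNAJ and BAG co-chaperones were examined in cells labelled as liver carcinoma with STIM1 knockout and in their control. Members were the genes of the HSPA, HSPB, HSP90A, HSF, BAG, DNAJA, DNAJB and DNAJC families by symbol, with HSPD1, HSPE1 and HSPH1, and without the chaperones of the endoplasmic reticulum lumen (HSPA5, DNAJB9, DNAJB11, DNAJC3 and DNAJC10). By this rule 73 of 16510 gene names were members, on 90 of the 17381 rows of the deposited table. The rule uses symbols and no measured value. The cells are labelled as Hep3B, an established human hepatocellular carcinoma line, in a form called "Hep3B SR", an abbreviation the labels do not explain, and both groups were untreated. Of the 6 libraries, 3 are of wildtype cells (the control) and 3 are of cells titled as STIM1 knockout (the knockout-labelled libraries). STIM1 is the calcium sensor of the endoplasmic reticulum that opens calcium channels of the plasma membrane when the store empties. For the knockout-labelled samples the genotype entries read STIM1, STIM2 and STIM3 knockout in turn, whereas one STIM1 knockout group is given by their titles and by the series text. The labels state neither the number of clones nor whether replicates were separate cultures, so the p-values measure the spread between these libraries, which may be technical.

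Heat shock proteins keep other proteins folded. HSP70 proteins bind exposed stretches of unfolded clients in a cycle of ATP hydrolysis. DNAJ proteins (also called HSP40) deliver clients and start that hydrolysis, and nucleotide exchange factors such as several BAG proteins and HSPH1 release them. HSP90 takes over clients that are nearly folded, among them many kinases and nuclear receptors, small heat shock proteins hold aggregating clients without using ATP, and HSPD1 with HSPE1 forms the folding chamber of mitochondria. In stress, heat shock factor HSF1 binds repeats of nGAAn units, the heat shock element, in the promoters of many of these genes. Liver carcinoma cells are known for high levels of several heat shock proteins.

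The deposited table holds only the mean of each group, as reads divided by size factors, and the authors' comparison. Whole reads of each library were recovered from the printed digits of those means. The libraries of a group are lettered A to C from the largest size factor down, since nothing ties them to sample numbers. Control libraries held 13707394 to 16223940 reads and knockout-labelled libraries 11925842 to 14951050. The targeted gene STIM1 was measured at 1047, 972 and 836 normalized reads in the control and at 1454, 1439 and 1422 in the knockout-labelled libraries, each time in the order A, B and C. STIM1 was thus higher in the libraries labelled knockout (adjusted p = 4.33e-14 in the authors' deposited table), and every direction below is that of the label. Markers of hepatocytes were at or near 0 in both groups: AFP, ALB and AHSG had 0 reads in every control library, and 1 read each at most in a knockout-labelled library. Since Hep3B is known to make AFP and albumin, these values go against the label of the line, and the identity of the cells was not tested otherwise. Of the 10 hepatocyte and fetal liver markers measured, HNF4A alone exceeded 100 normalized reads, at 219 ± 21.9 (SD, n = 3) in control and 817 ± 61.2 in knockout-labelled libraries. Summed levels of the 6 fibroblast markers were 2718 to 2776 in control libraries and 141 to 211 in knockout-labelled ones, the control sum being mostly THY1, which fell from 2285 to 0.953. The 6 endothelial markers summed to 128 to 165 and 19.5 to 23.8, the control sum being mostly PECAM1, which fell from 123 to 3.01. CDH5 was not lower, at 9.18 in control and 12.3 in knockout-labelled libraries, and KDR, TEK, VWF and EMCN had few reads in both. The 7 blood and immune markers summed to 82.9 to 170.0 and 44.9 to 63.8. Control library C had the highest of these sums, with 65.3 from HBB. In bulk RNA, fewer cells of a type and less RNA per cell cannot be told apart, and the part of these differences in the chaperone results was not tested.

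Below, a gene "rose" or "fell" in the knockout-labelled libraries when its adjusted p in the authors' deposited table was under 0.05. For 7 members whose reads lie on several rows of the table, the rows were summed and the call is that of limma, a linear model test fitted across 14770 genes. Levels are normalized reads with the SD over 3 libraries, and log2 changes with their standard error (SE) are limma's on log2(normalized reads + 1).

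Chaperone transcripts moved in both directions. Of the 73 members, 27 rose, 17 fell and 29 did not pass. Of all rows in the table, 54.5% were called, 25.7% higher and 28.8% lower, so the share of members called was near that of the table. At least 2-fold changes were called for 5 members upward and 4 downward, while 6.21% of all rows rose and 10.9% fell by that much. Among the 44 called members the median size of the log2 change was 0.60, and over all called rows it was 0.61. The limma test called 27 members higher and 21 lower of the 69 with a mean of at least 1, where 69.9% of all genes tested were called (32.9% higher and 36.9% lower). The members' median log2 change was 0.052 against -0.042 over all genes tested. For 52 members the 3 libraries of one group lay wholly above those of the other, 29 higher and 23 lower, as did 65.2% of all genes (30.9% higher and 34.3% lower). Over the 20 members with a mean of at least 1000 in both groups, the median coefficient of variation between libraries was 2.88% in control and 1.72% in knockout-labelled libraries. Together the members took 1.147% to 1.182% of the reads in the control libraries and 1.205% to 1.21% in the knockout-labelled ones.

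**Figure D1:**
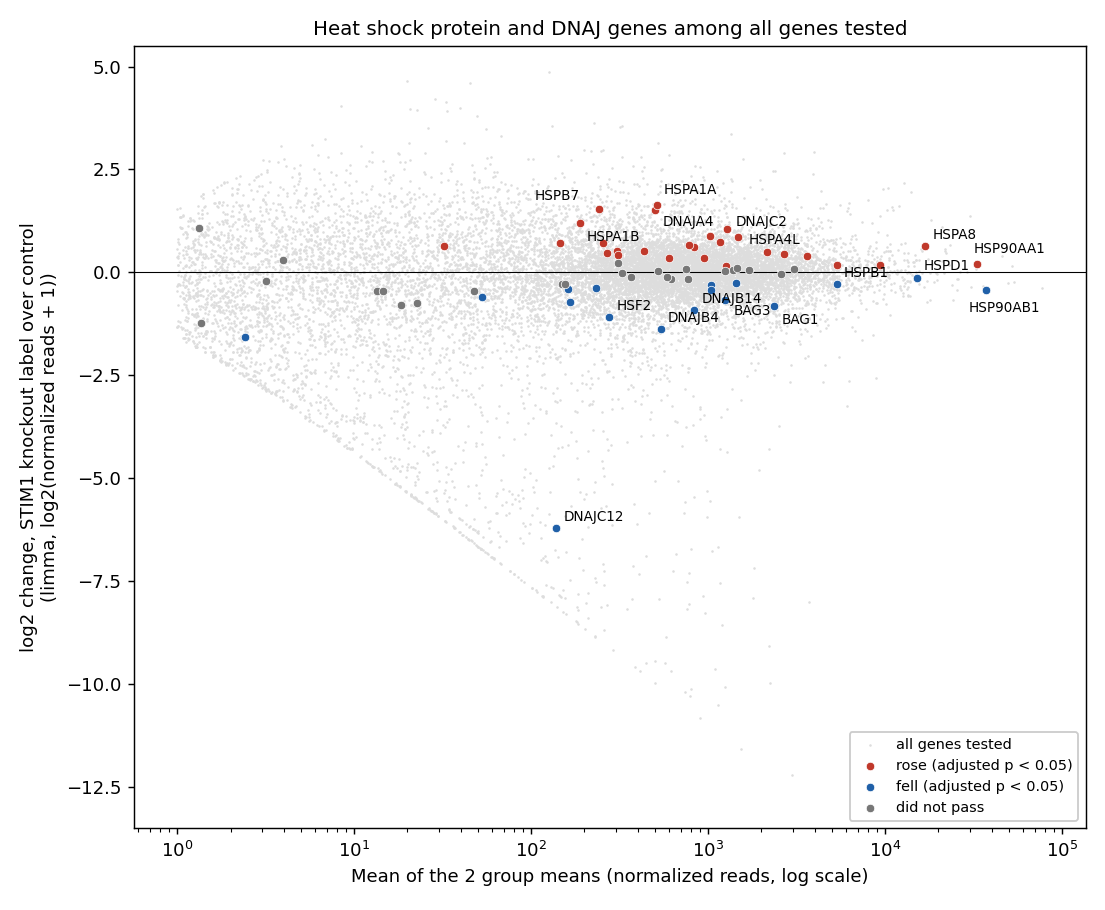
Change of the 69 members with a mean of at least 1 (coloured points) and of all 14770 genes tested (grey) against their level. The horizontal axis is the mean of both group means in normalized reads on a log scale, and the vertical axis is limma's log2 change, knockout-labelled over control. Risen members reach 1.64 (HSPA1A), and fallen members reach -1.58 apart from DNAJC12 at -6.21. The members furthest to the right, HSP90AB1, HSP90AA1 and HSPA8, lie at -0.43, 0.21 and 0.64. Their place rests on reads not scaled by gene length.

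The deposited table annotates 52 members to the cytosol or cytoplasm, 17 to mitochondria and 11 to the endoplasmic reticulum, so that the set holds more than cytosolic chaperones. The members are described by role, and each count stands beside the 25.7% of all rows that rose and the 28.8% that fell. Levels are compared between genes only per kilobase of the deposited gene length.

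Of the 3 heat shock factors measured, the transcription factors that bind heat shock elements, 1 rose, 1 fell and 1 did not pass. HSF1, the factor that heat activates, was read at 47.6, 55.9 and 60.1 in the control (A, B and C in that order throughout) and at 36.2, 47.9 and 35.7 in knockout-labelled libraries. Those groups overlapped narrowly, and the log2 change of -0.45 (SE 0.21) did not pass limma's threshold (adjusted p = 0.0661). Without knockout-labelled library B it passed (limma adjusted p = 0.0329), while without any other library it did not (0.057 to 0.18). HSF1 reads were split between the main chromosome and a patch sequence. HSF2, which binds the same elements and forms trimers with HSF1, had 373, 391 and 361 normalized reads in control and 143, 189.5 and 199 in knockout-labelled libraries. Every knockout-labelled library of HSF2 was thus well under every control library, with A the lowest. Its log2 change was -1.09 (SE 0.11), a level 0.472 times that of the control, and the adjusted p in the authors' deposited table was 1.84e-20. HSF4, known from the lens, rose from 261 ± 24.8 to 355 ± 63.2 (adjusted p = 0.0443 in the authors' deposited table), and 31.4% of its exon bases are shared with another gene model on the same strand. HSF5 was not analysed here.

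Among the 13 members of the HSP70 family, 8 rose, 1 fell and 4 did not pass, where 25.7% of all rows rose and 28.8% fell. HSPA8, the constitutive HSP70 that folds new proteins in every cell (chr11:123057489-123062366), had 13851, 12792 and 12951 normalized reads in the control libraries and 20799, 20262 and 20675 in the knockout-labelled ones. Every knockout-labelled library stood far above every control library. HSPA8 rose 1.56-fold, with a log2 change of 0.64 (SE 0.028), and the authors' deposited table gave an adjusted p of 8.11e-89. Per kilobase it was at 5779 in control, below both HSP90 genes, HSPB1 and HSPD1, and at 9010.0 in knockout-labelled libraries, level with HSP90AA1 at 9027.

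HSPA1A, the classic heat-inducible HSP70 (chr6:31815543-31817942), was the member with the largest rise. Summed over its rows it had 277, 213 and 256 normalized reads in control libraries and 801, 779 and 739.6 in knockout-labelled ones, a 3.11-fold rise with no overlap. By limma its log2 change was 1.64 (SE 0.088), at an adjusted p of 3.04e-10. Its neighbour HSPA1B, which encodes nearly the same protein, had 110.1, 129 and 101 in control and 251, 262 and 273 in knockout-labelled libraries, and rose 2.31-fold (limma adjusted p = 2.47e-07). The reads of both lie almost wholly on alternate sequences of the MHC region of chromosome 6, and on the main chromosome HSPA1A had 0 reads in control and a mean of 0.318 in knockout-labelled libraries. With the main chromosome alone HSPA1A was not called, and HSPA1B has no row there. For HSPA1B the copies disagreed: a mean of 73.3 rose to 225 on one alternate sequence and 23.5 fell to 1.28 on another, both called in the authors' deposited table. Reads of near-identical genes and copies can be divided among them in counting, so the values of HSPA1A and HSPA1B are uncertain. HSPA1B also shares 36.5% of its exon bases with another gene model on the same strand.

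Among other HSP70 members, HSPA4L, a relative of the exchange factor HSPA4 known from the testis, had 1062, 1089 and 987 normalized reads in control and 1889.7, 1904 and 1879.9 in knockout-labelled libraries. It rose 1.81-fold, with a log2 change of 0.85 (SE 0.044), and the authors' deposited table gave an adjusted p of 1.3e-56. The SD of its knockout-labelled libraries was 12.0 around a mean of 1891, though it rests on 3 libraries and the search for reads favours a small SD. HSPH1, the HSP110 exchange factor that works with HSP70 against aggregates, was at 2366, 2278 and 2199 in control and at 3075, 3091 and 3094 in knockout-labelled libraries. It rose 1.35-fold (log2 change 0.44, SE 0.035), and the authors' deposited table gave an adjusted p of 1.62e-24. HSPA4 itself had 5064, 5101 and 4850.2 in control and 5793, 5642 and 5667 in knockout-labelled libraries, a smaller rise of 1.14-fold whose groups also did not overlap (adjusted p = 5.72e-08 in the authors' deposited table). HSPA14, which sits on ribosomes, rose from 224 ± 5.57 to 309.7 ± 28.7, and HSPA12A from 525 ± 12.9 to 669.7 ± 29.8. HSPA1L, the testis form beside HSPA1A, rested on 13 reads in control and 2 in knockout-labelled libraries, a ratio of 0.166 with a 95% counting interval of 0.0181 to 0.732 (exact binomial, counting error only). All of its rows lie on alternate sequences of the MHC region. Its limma call (adjusted p = 0.0276) was lost without control library A, without control library C and without knockout-labelled library B (0.0753, 0.0763 and 0.102). HSPA6, a strictly heat-inducible HSP70, had few reads, at 16.8 ± 5.93 and 12.2 ± 4.68 and did not pass. HSPA2 (288 ± 39.9 and 335 ± 14.7), HSPA13 (815 ± 65.0 and 728 ± 28.2) and HSPA12B (23.2 ± 1.68 and 13.4 ± 4.04) did not pass in the deposited comparison, and limma called HSPA13 and HSPA12B lower.

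**Figure D2:**
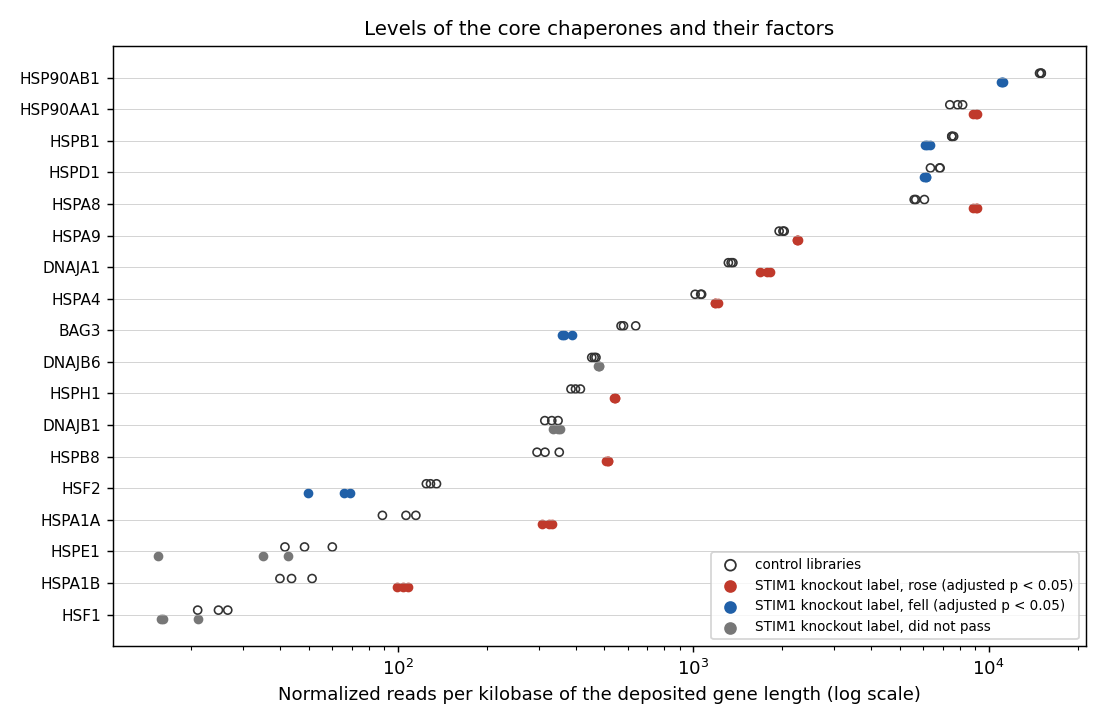
Levels of 18 core chaperones and factors in each library, as normalized reads per kilobase of the deposited gene length on a log scale. Open circles are the 3 control libraries and filled circles the 3 knockout-labelled ones, coloured by the call. HSPA8 stands to the right of all its control libraries and HSP90AB1 to the left, while HSF1, HSF2, HSPA1A, HSPA1B and HSPE1 lie below most of the others.

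Both cytosolic HSP90 genes passed, in opposite directions, where 54.5% of all rows were called. HSP90AB1, the constitutive HSP90 beta (chr6:44246194-44253883), had 43079.5, 43023 and 42489 normalized reads in control libraries and 31919, 31827 and 31504 in knockout-labelled ones. All its knockout-labelled libraries lay far below the lowest control library, and the libraries of each group lay close together. It fell to 0.741 times its control level, with a log2 change of -0.43 (SE 0.018), and its adjusted p in the authors' deposited table was 2.67e-73. HSP90AA1, the stress-inducible HSP90 alpha (chr14:102080742-102139749), had 30952, 32178 and 29121 in control and 35897, 35753 and 35021 in knockout-labelled libraries. The rise was 1.16-fold (log2 change 0.21, SE 0.029), larger than the spread of the control libraries, and the adjusted p in the authors' deposited table was 8.16e-07. Per kilobase HSP90AB1 was the highest of the 18 core genes in both groups, at 15008 in control and 11117 in knockout-labelled libraries.

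All 3 cytosolic DNAJA members passed, 2 upward, where 54.5% of all rows were called. DNAJA4, a type I HSP40 (chr15:78264145-78282191), had 276, 270.0 and 234 normalized reads in control and 724, 778 and 742 in knockout-labelled libraries. It rose 2.88-fold with a log2 change of 1.52 (SE 0.075), and its adjusted p in the authors' deposited table was 3.49e-65. DNAJA1, the abundant HSP40 partner of HSPA8, was at 3052, 3162 and 3119 and rose to 4237, 4113 and 3906, a 1.31-fold difference without overlap (adjusted p = 1.49e-21 in the authors' deposited table). DNAJA2, the third type I HSP40 of the cytosol, fell from 1571 ± 41.3 to 1307 ± 25.9.

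Of the 9 cytosolic and nuclear DNAJB members 0 rose, 2 fell and 7 did not pass. At an unadjusted p under 0.05 the count of members higher was also 0, both in the authors' deposited table, where 27.1% of all rows were higher at that threshold, and by limma, where 34% of all genes tested were. Of the 9, DNAJB3 and DNAJB8 were not tested by limma, and these and DNAJB7 had too few reads to show a small difference. The counts depend on how members were placed. DNAJB12, which rose, and DNAJB14, which fell, are counted with the endoplasmic reticulum membrane below, while DNAJB2, also annotated to that compartment, was kept here. DNAJB1, the main heat-inducible HSP40, had 1425, 1285 and 1357 normalized reads in control and 1427, 1367 and 1448 in knockout-labelled libraries. The groups overlapped, the log2 change was 0.061 (SE 0.046), and the authors' deposited table gave an adjusted p of 0.431. DNAJB6, which holds back aggregation of polyglutamine proteins, was at 1691, 1636 and 1668 in control and 1735, 1729.9 and 1713 in knockout-labelled libraries. Its libraries did not overlap, but the difference of 1.04-fold did not pass (adjusted p = 0.425 in the authors' deposited table). DNAJB4, a relative of DNAJB1 (chr1:77979175-78017964), had 758, 791 and 782 in control and 309.7, 275 and 316 in knockout-labelled libraries. It fell to 0.387 times the control level, with a log2 change of -1.37 (SE 0.068), and the authors' deposited table gave an adjusted p of 4.53e-57. DNAJB5 fell from 264 ± 35.1 to 201 ± 5.77. DNAJB2 (724 ± 22.2 and 773 ± 26.4) did not pass, DNAJB13 (15.6 ± 3.19 and 11.1 ± 2.31) and DNAJB7 (3.49 ± 1.36 and 4.41 ± 1.26) rested on few reads, and DNAJB3 and DNAJB8 had at most 2 reads in any library.

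The largest change of any member was in DNAJC12, which among the 13 other DNAJC members, 6 risen, 3 fallen and 4 not passing, is the co-chaperone of the aromatic amino acid hydroxylases (chr10:67796665-67838188). DNAJC12 had 296, 282 and 247 normalized reads in the control libraries and 2.86, 2.93 and 2.38 in the knockout-labelled ones. These were 336, 292 and 238 reads against 3, 3 and 2, a ratio of 0.00994 with a 95% counting interval of 0.00428 to 0.0197 (exact binomial, counting error only). Its log2 change was -6.21 (SE 0.23), which the pseudocount pulls toward 0, and its adjusted p in the authors' deposited table was 8.84e-119. DNAJC2, a ribosome-bound HSP40 also known as MPP11 or zuotin, had 846, 849 and 806 in control and 1687, 1631 and 1851 in knockout-labelled libraries. It rose 2.07-fold, with a log2 change of 1.05 (SE 0.051), and the adjusted p in the authors' deposited table was 8.86e-40. DNAJC22 had 711, 768 and 680.2 in control and 1299, 1291 and 1403 in knockout-labelled libraries and rose 1.85-fold (adjusted p = 4.92e-43 in the authors' deposited table). Neither of these overlapped between the groups.

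Others of the group moved less. DNAJC9, a histone chaperone, rose from 663 ± 15.5 to 1011 ± 22.7, and 24.0% of its exon bases overlap FAM149B1 on the opposite strand. DNAJC5, the cysteine string protein of secretory vesicles, rose from 1780.4 ± 54.3 to 2500.5 ± 37.6. DNAJC6, the neuronal auxilin that uncoats clathrin vesicles, rose from 251 ± 19.5 to 357 ± 9.44, and GAK, the auxilin of other tissues, from 1529 ± 71.7 to 1705 ± 58.8. GAK is one of the partner genes below and was chosen after its values were seen. DNAJC24, which takes part in making the diphthamide residue, rose from 358 ± 21.96 to 512 ± 15.7. DNAJC8, a splicing-associated member, fell from 1186 ± 46.2 to 886 ± 21.0 (limma, rows summed), and DNAJC27, a small GTPase with a J domain, from 184 ± 9.59 to 139 ± 5.36. DNAJC7, DNAJC13 and DNAJC21 did not pass, at 1.08, 1.06 and 0.972 times their control levels. DNAJC17 did not pass in the deposited comparison either, and limma called it lower (165 ± 16.7 and 134 ± 2.40).

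**Figure D3:**
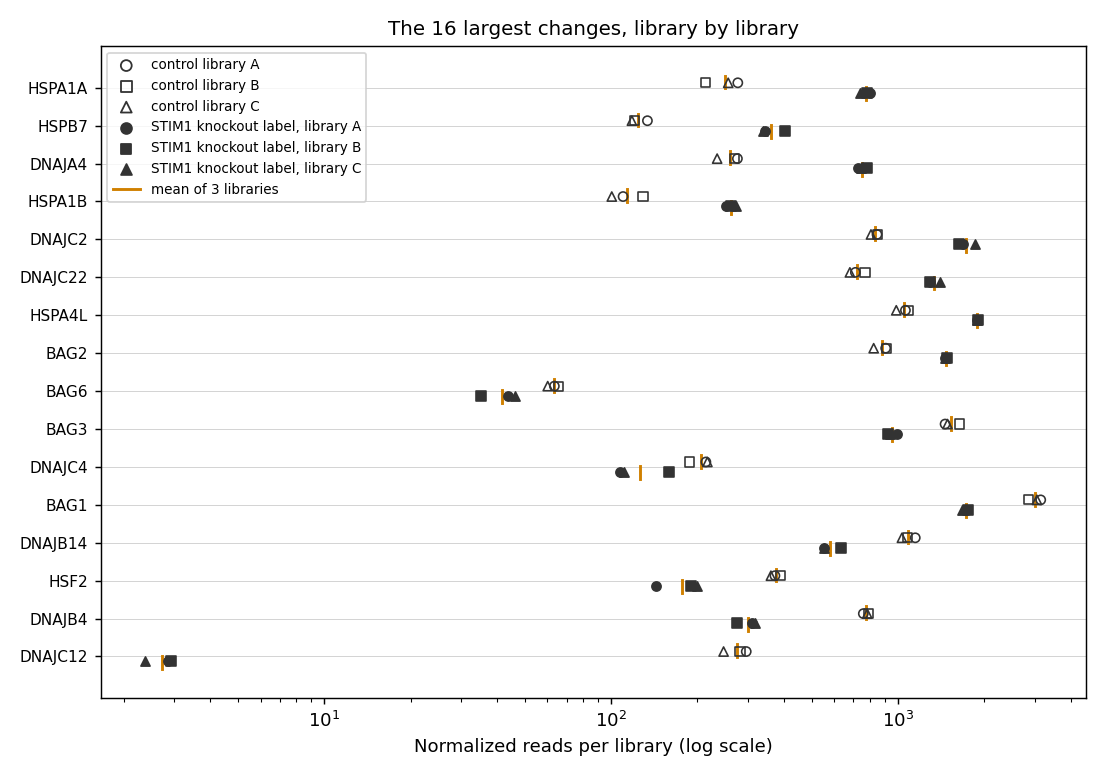
Called members with the 8 largest rises and the 8 largest falls, each with at least 50 normalized reads in the higher group and no overlap, by library on a log scale. Open symbols are control libraries, filled symbols knockout-labelled libraries, and orange bars the mean of 3. DNAJC12 runs from a mean of 275 to 2.72, while no other of the 16 differs by more than the 3.11-fold of HSPA1A.

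The BAG family, which holds exchange factors that release clients from HSP70, had 2 risen, 3 fallen and 1 not passing. BAG3, the stress-induced member that sends clients to autophagy together with HSPB8 (chr10:119651380-119677819), had 1461, 1637 and 1489 normalized reads in control and 995, 924 and 939 in knockout-labelled libraries. It fell to 0.623 times the control level, with a log2 change of -0.68 (SE 0.051), and its adjusted p in the authors' deposited table was 7.59e-22. BAG1, which links HSP70 to the proteasome (chr9:33252471-33264708), was at 3147, 2848 and 3053 and fell to 1736, 1756 and 1679. The fall left 0.572 of the control level (log2 change -0.81, SE 0.041), and the adjusted p in the authors' deposited table was 4.67e-45. BAG2, which inhibits the ubiquitin ligase STUB1 (chr6:57172326-57189833), moved the other way, from 906, 910.3 and 823 to 1454, 1486 and 1457. BAG2 rose 1.67-fold, with a log2 change of 0.74 (SE 0.048), and the authors' deposited table gave an adjusted p of 3.17e-35. Of its exon bases 42.7% overlap RAB23 on the opposite strand, which was at 310.9 ± 9.21 and 328 ± 10.7 (limma adjusted p = 0.379).

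BAG6, a triage factor for membrane proteins, has 7 rows over the main chromosome and alternate MHC sequences, which summed to 63.4, 65.6 and 60.1 in control and 43.8, 35.2 and 46.4 in knockout-labelled libraries. The fall, with a log2 change of -0.59 (SE 0.19) and a limma adjusted p of 0.0124, did not pass without knockout-labelled library B (0.0511), and the division of its reads among copies makes it uncertain. BAG5 rose from 1193 ± 31.7 to 1336 ± 46.7. BAG4 (655 ± 13.2 and 585 ± 48.8) did not pass in the deposited comparison, though limma called it lower.

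Small heat shock proteins had 2 risen, 1 fallen and 4 not passing of 7. HSPB1, also called HSP27 and the most abundant of them (chr7:76302673-76304292), had 5918, 5836 and 5832 normalized reads in control and 4905, 4719.9 and 4801 in knockout-labelled libraries. It fell to 0.82 times the control level without overlap (log2 change -0.29, SE 0.027), and its adjusted p in the authors' deposited table was 4.13e-17. HSPB8, the partner of BAG3, moved upward instead, from 551, 656 and 587 to 959, 962 and 942. HSPB8 rose 1.6-fold, with a log2 change of 0.68 (SE 0.062), and the authors' deposited table gave an adjusted p of 2.01e-21. HSPB7, known from heart muscle (chr1:16014029-16019594), had 134, 121 and 118 in control and 343, 402 and 339 in knockout-labelled libraries and rose 2.91-fold (adjusted p = 6.31e-31 in the authors' deposited table). HSPB11, a subunit of intraflagellar transport, was at 381 ± 15.3 and 351 ± 9.19 and did not pass, and HSPB2, HSPB6 and HSPB9 had at most 4 reads in any library. HSPB3 was not analysed here.

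Of the 10 mitochondrial members, 4 rose, 3 fell and 3 did not pass. HSPA9, the mitochondrial HSP70, had 8869, 8955 and 8611 normalized reads in control and 9863, 10009 and 9881 in knockout-labelled libraries, a rise of 1.13-fold that exceeded the spread of either group (adjusted p = 1.26e-08 in the authors' deposited table). HSPD1, the HSP60 of the folding chamber, was at 16174, 16115 and 15003 and at 14511, 14486 and 14315. It fell to 0.916 times its control level, with a log2 change of -0.13 (SE 0.028), and the authors' deposited table gave an adjusted p of 0.00118. HSPE1, the HSP10 lid of the same chamber, was read at only 33.5, 23.1 and 27.0 in control and 8.58, 19.5 and 23.8 in knockout-labelled libraries. Per kilobase it lay at 50.01 in control, where HSPD1 lay at 6679.7. HSPE1 shares 9.71% of its exon bases with the readthrough gene HSPE1-MOB4 and 14.2% with HSPD1, and whether reads were lost in counting was not tested. Its log2 change of -0.75 (SE 0.35) did not pass (adjusted p = 0.116 in the authors' deposited table), but limma called it without knockout-labelled library C (0.0206). Without any other library limma did not call it (0.0544 to 0.312), and without knockout-labelled library A the log2 change was -0.34.

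Smaller mitochondrial members moved in both directions. DNAJC15, of the protein import motor, rose from 193 ± 11.5 to 318 ± 10.4, and DNAJC30, which serves the respiratory chain, from 110.5 ± 9.01 to 181 ± 7.02. DNAJC11, of the cristae, fell from 1152 ± 7.35 to 935 ± 59.9, and 27.9% of its exon bases overlap THAP3 on the opposite strand, which also fell (limma adjusted p = 4.48e-06). DNAJC4 had 214, 188 and 217 in control and 108, 159 and 111 in knockout-labelled libraries, among which B was the highest, and fell to 0.61 times the control level (adjusted p = 7.58e-05 in the authors' deposited table). DNAJA3, the mitochondrial type I HSP40, rose from 24.7 ± 3.25 to 39.6 ± 8.20 by limma (adjusted p = 0.0289). Almost all its reads lie on an alternate sequence, with means of 24.7 and 38.8. On the main chromosome the means were 0 and 0.793. Neither row was called in the authors' deposited table (adjusted p = 0.107 and 0.814). The limma call of DNAJA3 was lost without control library B or C and without knockout-labelled library B or C (0.0663, 0.0877, 0.0805 and 0.105). DNAJC19 (605 ± 19.8 and 561 ± 18.9) did not pass and DNAJC28 had at most 1 read in any library.

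Of the 7 DNAJ proteins of the endoplasmic reticulum membrane, 1 rose, 1 fell and 5 did not pass. DNAJB14 (chr4:99896248-99946713), which works with HSPA8 in disposing of membrane proteins, had 1149.6, 1081 and 1033 normalized reads in control and 553, 631 and 552 in knockout-labelled libraries. It fell to 0.532 times the control level (log2 change -0.91, SE 0.063), and the adjusted p in the authors' deposited table was 2.11e-32. Its close relative DNAJB12 rose from 840.2 ± 55.9 to 1067 ± 73.4. DNAJC1, DNAJC14, DNAJC16 and DNAJC25 did not pass, at 0.817 (DNAJC25) to 1.03 (DNAJC14) times their control levels. DNAJC18 had at most 7 reads in any library, but its only row lies on a patch sequence, so its level on the main chromosome is not known.

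**Figure D4:**
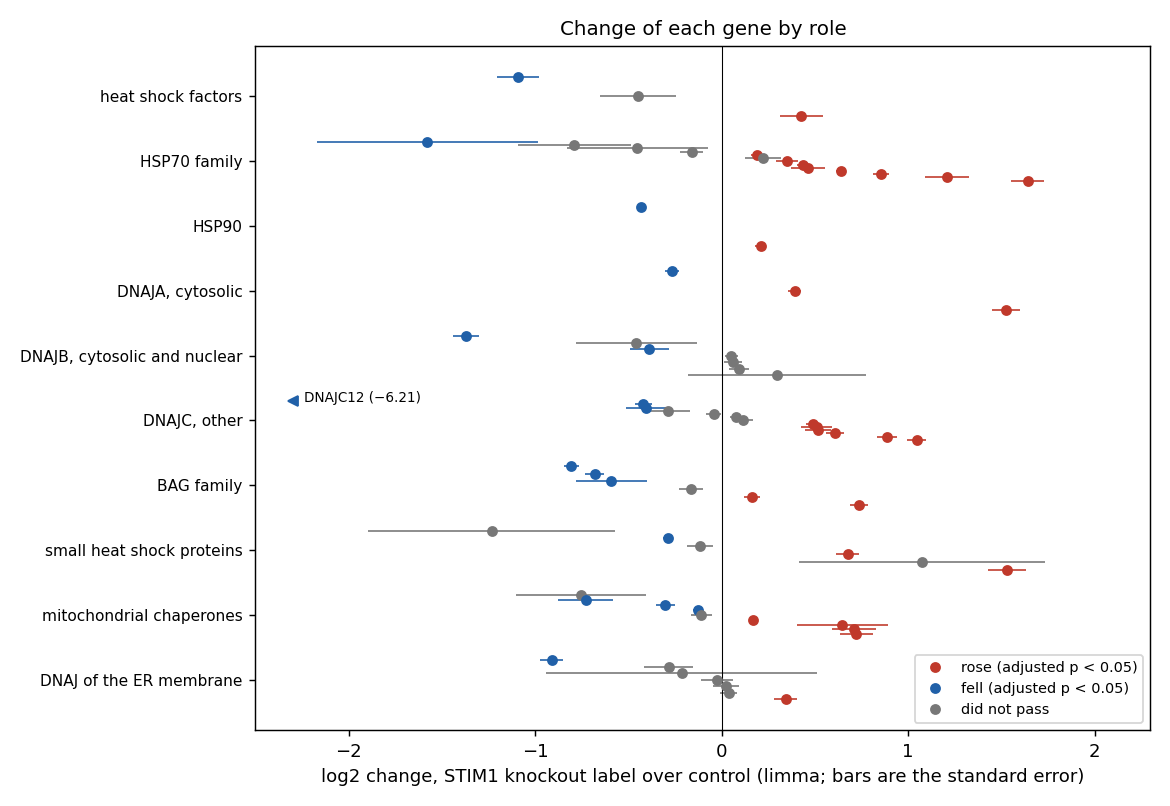
Log2 change (limma, knockout-labelled over control) of each of the 69 members with a mean of at least 1, by role, with bars for the standard error and colours for the call. An arrow marks DNAJC12, which lies beyond the axis at -6.21. The HSP70 family has 8 risen and 1 fallen of 13 members, where 25.7% of all rows rose and 28.8% fell. The 8 include HSPA1A and HSPA1B, whose values are uncertain. The 1 fallen is HSPA1L, which rested on 13 reads in control and 2 in knockout-labelled libraries. The cytosolic and nuclear DNAJB group, with 7 of its 9 members plotted, has 0 risen and 2 fallen. DNAJB12, which rose, and DNAJB14, which fell, are placed in the endoplasmic reticulum membrane group instead. The other 9 groups hold both risen and fallen members.

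Heat shock elements were sought in the RefSeq promoter sequences (GRCh38.p14), in the 250 bases before each gene's RefSeq start. For the members printed here that start is the one of the deposited table, apart from HSPA1B, which has no row on the main chromosome, and HSPA8, whose RefSeq start (123062136) lies 230 bases inside the deposited interval, so that both of its windows lie within that interval or across its end. They are shown for members whose changes are described above, since these letters are the part of the promoter that heat shock factors recognise. The motif was a pair of inverted units, GAANNTTC or TTCNNGAA, each of which reads the same on both strands, and, in the stricter form, 3 units in a row (GAANNTTCNNGAA on one strand, TTCNNGAANNTTC on the other), which contains the pair. Of the 73 members 63 were matched to a promoter. A pair was found in 13 of 63 (20.6%) and in 11.7% of 27305 promoters of all genes, and 3 units in 3 of 63 (4.76%) and in 0.439% of all. By call, the pair was present for 7 of 24 risen members, 2 of 17 fallen and 4 of 22 not passing. A match is a run of letters, not a site shown to be bound. Capitals mark the motif in each window, read 5′ to 3′ on the strand of the gene.

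HSPA8, 3 units, chr11:123062346-123062374, minus strand: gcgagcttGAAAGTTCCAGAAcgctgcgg
HSPA8, 3 units, chr11:123062171-123062199, minus strand: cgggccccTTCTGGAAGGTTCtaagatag
HSPA6, 3 units, chr1:161524458-161524486, plus strand: cggaaaggTTCGCGAAAGTTCgcggcggc
DNAJB6, 3 units, chr7:157336865-157336893, plus strand: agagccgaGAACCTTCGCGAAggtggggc
HSPA1B, 1 pair, chr6:31827625-31827648, plus strand: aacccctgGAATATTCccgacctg
HSPB1, 1 pair, chr7:76302483-76302506, plus strand: taacgagaGAAGGTTCcagatgag
HSPB8, 1 pair, chr12:119178835-119178858, plus strand: tcacctccGAATATTCctgtgaca
DNAJA1, 1 pair, chr9:33025067-33025090, plus strand: gggctccaGAAGATTCcacgagcg
BAG2, 1 pair, chr6:57172194-57172217, plus strand: accgatagGAACCTTCgcgtgggg
DNAJC15, 1 pair, chr13:43023389-43023412, plus strand: gagtgtgaTTCAAGAAcgtcccag

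The member with the largest rise, HSPA1A, is shown with its whole upstream window, chr6:31815293-31815542, plus strand, with its pair 106 to 99 bases before the start.
HSPA1A, 250 bases upstream: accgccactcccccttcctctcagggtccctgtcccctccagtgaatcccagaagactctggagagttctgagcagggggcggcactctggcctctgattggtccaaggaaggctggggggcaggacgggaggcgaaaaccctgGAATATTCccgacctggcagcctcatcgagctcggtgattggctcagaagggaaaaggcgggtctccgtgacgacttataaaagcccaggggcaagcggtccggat

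Of the 3 members with 3 units in a row, HSPA8 rose while HSPA6 and DNAJB6 did not pass. Of the members printed with 1 pair, HSPA1A, HSPA1B, HSPB8, DNAJA1, BAG2 and DNAJC15 rose and HSPB1 fell. HSPA1L, on the other strand, shares the pair of HSPA1A, and the pairs of HSPB6 and DNAJB7, members with few reads, are not printed. The window of HSP90AA1, HSPH1, HSPA4L, DNAJA4, DNAJB1 and BAG3 held no such letters, which says only that they are not in these 250 bases. Units that depart from these letters were not sought, so an imperfect element there would have been missed. The RefSeq start of DNAJB1 lies 1326 bases inside the deposited interval. That of HSP90AA1 is the outer end of its deposited interval, 102139749. Only 1 start of each gene was searched, so the promoters of other transcripts of a gene were not.

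Partner genes that work with the members were taken as 6 whole lists. Of the 62 genes measured, 25 rose, 19 fell and 18 did not pass. Of all rows 54.5% were called, 25.7% higher and 28.8% lower, and the counts of each list below stand beside these shares. Of 14 HSP90 co-chaperones 4 rose, 2 fell and 8 did not pass. CDC37, which brings kinases to HSP90, was at 2231, 2236 and 2333 in control and 930.1, 926 and 922 in knockout-labelled libraries, a fall to 0.408 times the control level (adjusted p = 8.91e-132 in the authors' deposited table). STIP1, which joins HSP70 to HSP90, fell from 4751 ± 206 to 4172 ± 95.7. AARSD1 was not analysed here. Of the 9 other partners of HSP70, 3 rose, 5 fell and 1 did not pass. SGTA, which passes tail-anchored membrane proteins on, fell from 947 ± 41.2 to 474 ± 6.24, and its relative SGTB from 741 ± 54.7 to 462 ± 37.8.

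The CCT chaperonin, the ring that folds actin and tubulin, had 2 subunits risen, 5 fallen and 1 not passing of 8. CCT6A had 14195, 14709 and 13844 normalized reads in control and 7146, 6821 and 6912 in knockout-labelled libraries and fell to 0.488 times the control level (adjusted p = 3.66e-167 in the authors' deposited table). CCT5 fell less, from 13665 ± 166 to 10550.2 ± 95.3. Prefoldin, which hands actin and tubulin to CCT, had 1 risen, 2 fallen and 3 not passing of 6, with PFDN2 at 975 ± 47.9 and 618 ± 4.68 and PFDN1 at 769 ± 8.35 and 665 ± 61.2, both fallen. Of 12 mitochondrial folding factors and proteases, 7 rose, 2 fell and 3 did not pass. The 2 that fell had the smallest adjusted p: the protease LONP1 went from 3778 ± 72.4 to 2204 ± 10.9 and the mitochondrial HSP90 TRAP1 from 3284 ± 38.0 to 2432 ± 99.4. Of 13 other genes listed as heat shock factor targets, 8 rose, 3 fell and 2 did not pass, where 25.7% of all rows rose and 28.8% fell. TNFAIP3, an inhibitor of NF-kB, rose from 253 ± 11.6 to 1055 ± 78.9, 4.16-fold, and the ubiquitin gene UBB from 8101 ± 219 to 12439.5 ± 402.

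**Figure D5:**
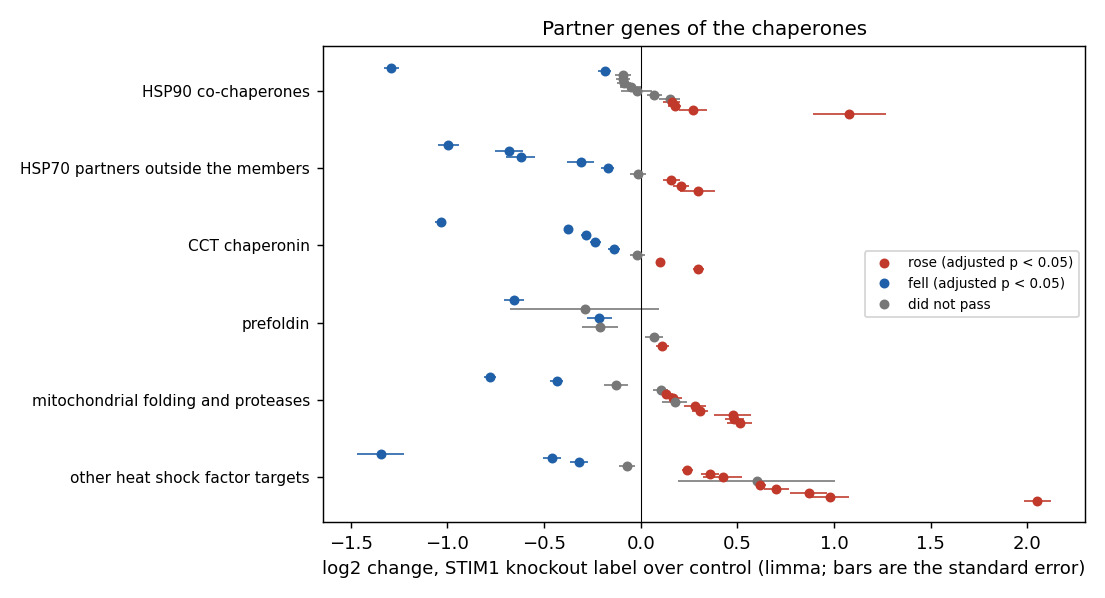
Log2 change (limma, knockout-labelled over control) of the partner genes with a mean of at least 1, by list, with bars for the standard error and colours for the call. CDC37 (-1.29) and CCT6A (-1.03) lead the falls of their lists, and TNFAIP3 (2.05) lies far to the right of the other heat shock factor targets. RGS2 (-1.34), also in that list, is the largest fall shown and was named after its values were seen.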

How the data were processed

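Messenger RNA of 6 libraries in 2 groups was analysed. Groups were taken from the sample titles. Per the labels' protocols, a SMARTER mRNA-Seq kit was used on column-purified RNA. The authors deposited, for each gene, a signal that is the group mean of read counts normalized by size factors, and per the file headers the columns are those of DESeq. Their ratio (fold), knockout over control, and its log2 value were deposited by the authors, as were the p-value and the adjusted p-value of their comparison. The aligner, the counting tool and whether counting used strand are not given in the sources used here, so reads of overlapping genes on opposite strands may be mixed. Mouse builds (GRCm38 and mm10) are named in the submitters' processing notes, but the table's chromosomes carry the identifiers of human GRCh38, the build of all coordinates here. Genes on alternate and patch sequences have rows of their own. The second deposited table, which holds some of the same columns, was left out.

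The means are printed to 15 digits, enough to search for the 3 whole counts behind each. The search gave exactly 1 set of reads in both groups for 17380 of 17381 rows. Below a mean of 60 every combination was tried; above it, libraries within 15% of the mean were tried first and within 50% next, and a wider search only where these gave none, so a set with a wider spread was not looked for once a narrow one was found, which favours a small SD. EEF1A1 was not settled and was left out. Group means rebuilt from these reads lay within 2.91e-10 of the deposited ones, and rebuilt size factors within 0.00407%. The search was also run on simulated data whose libraries spread little within a group, so wide spreads were not tested. SDs and SEs rest on these reads. The trended empirical Bayes fit of limma 3.58.1 (R 4.3.3), adjusted by Benjamini and Hochberg, was run on log2(normalized reads + 1) of genes whose mean reached 1, rows summed by name, with all 6 libraries in one fit. Counting intervals are exact binomial ones on reads pooled over a group and cover counting error only, since reads are not independent molecules.

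Members were taken by symbol, and members and gene lists were chosen with earlier results of these data known, so no test over a list was made. Named with every library were 18 core chaperones and factors whatever their change, and the 8 largest rises and the 8 largest falls among called members with at least 50 normalized reads in the higher group and no overlap. The other members are given with their means or counts. From each partner list the 2 genes of smallest adjusted p were named, and the exon overlaps were read from GENCODE 29. CHORDC1 and other partners are counted but not described, apart from those said to be chosen after their values were seen. Alternatives changed the thresholds, rows, pseudocount, filter, scaling and spread model, and left out each library in turn.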

Additional observations from a re-analysis of the deposited data

How the results depend on the processing

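With a log2 change of at least 1 added to the threshold, 9 members were called in the deposited comparison in place of 44, 5 higher and 4 lower. The counts moved little otherwise: 39 at an adjusted p under 0.01, 39 with the main chromosome alone (without HSPA1A, HSPA1B, HSPA1L, BAG6 and DNAJA3), and 41 in place of 44 partner genes at 0.01. limma called 48 members, 48 to 52 under 7 other settings of the pseudocount, filter, scaling and spread model, and 45 to 47 without 1 library. For the 30 members named with every library, 385 of 390 values under the 13 limma alternatives kept their direction and their side of the threshold, and 0 turned direction. BAG6 no longer passed without knockout-labelled library B (-0.47), HSF1 passed without that library (-0.58), and HSPE1 passed with a pseudocount of 5 (-0.62), with voom (-0.82) and without knockout-labelled library C (-1.03). HSPA12B, HSPA13, DNAJC17 and BAG4 were called by limma alone. The causes were not tested. No paired analysis was possible because the deposited columns carry no replicate numbers. The recovered libraries also have no sample numbers. For the 4 members under a mean of 1 a difference was not detectable at this depth.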

Other observations

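The ratios of reads of 6 pairs of related members are given as descriptions. The pairs were chosen after their values were seen, from members that changed in different directions or by different amounts, so that a difference between the groups was fixed by the choice. Such a ratio needs no size factor, since both genes are read in the same library. HSP90AA1 over HSP90AB1 was 0.717 ± 0.0313 (SD, n = 3) in control and 1.12 ± 0.00715 in knockout-labelled libraries. BAG2 over BAG1 went from 0.292 ± 0.0253 to 0.850 ± 0.0155. DNAJB4 over DNAJB1 went from 0.574 ± 0.0419 to 0.212 ± 0.00936, and DNAJB14 over DNAJB12, the pair in the membrane of the endoplasmic reticulum, from 1.302 ± 0.159 to 0.546 ± 0.0817. HSPA4L over HSPA4 went from 0.209 ± 0.00502 to 0.332 ± 0.00561 and DNAJA4 over DNAJA1 from 0.0836 ± 0.00775 to 0.183 ± 0.0107. Reads are not scaled by gene length here, so a ratio is no ratio of molecules and does not say which gene of a pair was the more abundant.

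Among the partners, ZFAND2A, listed as a target of heat shock factors, rose from 168 ± 17.8 in control to 330.1 ± 25.3 in knockout-labelled libraries. STUB1, the ubiquitin ligase that works on HSP70 clients and that BAG2 inhibits, fell from 602 ± 30.2 to 391.9 ± 35.6. SERPINH1, the collagen chaperone, fell from 2167 ± 53.0 to 1577 ± 102, and HMOX1, the haem oxygenase, rose from 509.9 ± 26.2 to 829.9 ± 59.2. These genes were picked after their values were seen.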
